A study of Mus musculus with 8 samples.

Results

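The genes described here are 8 secreted defence products of the intestinal mucosa: the mucosal pentraxins Mptx1 and Mptx2, the ribonucleases Ang, Ang3, Ang4 and Ang5 of the angiogenin family, the lectin intelectin 1 (Itln1) and lysozyme 1 (Lyz1). They were taken by gene name from a count table of 23282 lines, and all 8 were among the 14567 genes that passed the filter on low counts. They had been picked for their CPM (counts scaled to library size) in these same 8 libraries, so their levels and differences are a description and carry no test. Ang3 and Ang5 are listed at the same position with identical counts in every library, so they give 1 set of values and are written Ang5 from here on, except where all 8 lines are counted.

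RNA of intestinal tissue from wild-type C57BL/6 mice was sequenced in 4 groups of 2 libraries. Animals of the group labelled NC had saline (PBS) by gavage and no dextran sodium sulfate (DSS), a polysaccharide that injures the gut lining and is used to induce colitis. The group labelled PC had the same gavage and then 3% DSS in its water for 6 days, Ex had 1 mg of exosomes from bovine colostrum by gavage each day for 3 weeks without DSS, and ExDSS had the exosomes and then DSS. Exosomes are small membrane vesicles, here isolated from first milk. The gut region and the age of the mice are not given in the sources used here, and no label ties the libraries of a group to different animals, so any p-value measures only the spread between libraries, which may be technical.

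Pentraxins are secreted proteins that assemble into rings and bind microbial and damaged-cell surfaces; C-reactive protein and serum amyloid P are the best known of them, and the mucosal pentraxins are made by the gut epithelium. Angiogenin 4 is a ribonuclease with microbicidal activity made by Paneth cells of the small intestine and by secretory cells of the colon. Paneth cells sit at the base of small intestinal crypts and secrete lysozyme, alpha-defensins and other antimicrobial proteins, while the healthy mouse colon has goblet cells and deep crypt secretory cells in their place.

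Several libraries stood apart from their labels or from their partner, and this touches every comparison. Total counts were between 8813622 and 12308537 in 7 libraries and 1163147 in Ex 2, where the ribosomal precursor Rn45s took 53.5% of the counts and the epithelial marker Epcam stood at 5.96 CPM against 552 to 696 CPM elsewhere. Pancreatic acinar genes took 9.74% of the counts in NC 2 and 22.0% in ExDSS 1, and at most 0.285% in the other libraries. S100a8, a subunit of the neutrophil protein calprotectin that is raised in DSS colitis, stood at 825 and 792 CPM in the libraries labelled NC but only at 0.291 and 0.628 CPM in those labelled PC, against the labels. All comparisons below follow the labels. If NC and PC had been exchanged, PC against NC would have the opposite sign, and ExDSS against PC, Ex against NC and the interaction would be set against the other control group and take other values. All CPM values were normalised with TMM factors, which set libraries to the same level over the bulk of genes.

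Markers of colon epithelium were abundant, while genes listed for small intestinal enterocytes ranged from near 0 to 765 CPM. The anion exchanger Slc26a3 and the carbonic anhydrases Car1 and Car4, all abundant in colon epithelium, stood at 230.0 to 4396 CPM outside Ex 2. Lactase (Lct), sucrase-isomaltase (Sis), trehalase (Treh) and apolipoprotein A-IV (Apoa4), products of small intestinal enterocytes, reached at most 0.613 CPM in any library. Other genes of that list were present: the fatty acid binding protein Fabp2 stood at 32.0 to 765 CPM outside Ex 2, and the meprin subunit Mep1a, the glucose transporter Slc5a1 and the aminopeptidase Anpep reached 179, 75.0 and 122 CPM. Of the 15 alpha-defensin genes in the table, none had a count in 7 libraries, and 3 of them shared 4 counts in PC 1. Matrilysin (Mmp7), the protease that activates Paneth cell defensins, had at most 0.382 CPM. Other products linked to Paneth cells were well above 0, among them Reg3b, Reg3g and, at 9.30 to 94.6 CPM outside Ex 2, the phospholipase Pla2g2a.

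Mptx1 and Mptx2 lie on chromosome 1 at chr1:174330518-174332877 on the plus strand and chr1:173274461-173277756 on the minus strand (GRCm38 positions). The upstream sequences of this pair are shown because the genes are close relatives with very different counts. Each run covers the 150 bases before the annotated start, from RefSeq for GRCm38.p6, at chr1:174330368-174330517 and chr1:173277757-173277906, read 5′ to 3′ on the gene's own strand. Capitals mark bases without an identical partner in the other gene when the promoter entries of 300 bases were aligned.
Mptx1: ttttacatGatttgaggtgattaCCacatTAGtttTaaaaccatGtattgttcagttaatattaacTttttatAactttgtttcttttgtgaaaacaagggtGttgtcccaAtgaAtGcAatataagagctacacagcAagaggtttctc
Mptx2: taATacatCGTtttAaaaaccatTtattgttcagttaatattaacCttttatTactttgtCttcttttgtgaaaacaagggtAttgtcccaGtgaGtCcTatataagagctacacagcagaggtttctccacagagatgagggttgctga
The promoter entries were 86.7% identical over 286 aligned columns, and 16 of the 150 bases of Mptx1 printed above and 15 of those of Mptx2 had no identical partner. The transcripts were 92.3% identical, and their last 200 bases 88.8%. The longest shared run was 112 bases, and 17.9% of the 50-base windows of the Mptx1 transcript also occurred in Mptx2. Reads from such windows cannot be assigned to 1 of the 2 genes.

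Mptx1 was the member with the most counts, 240483 in all libraries together, and its values within a group lay far apart. It stood at 6.37 CPM in NC 1 and 0.0954 CPM in NC 2, the latter a single count. Both PC libraries were high, with 4248 and 8115 CPM. In the exosome group without DSS it stood at 5038 CPM in Ex 1 and 23.8 CPM in Ex 2, where 16 counts lay behind the value. With exosomes and DSS it stood at 2.33 CPM in ExDSS 1 and 2466 CPM in ExDSS 2. So 4 libraries held at least 2466 CPM and the other 4 at most 23.8 CPM. The libraries of Ex fell on opposite sides of that gap, and so did those of ExDSS.

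Group means of Mptx1 were 3.23 ± 4.44 CPM in NC, 6181 ± 2734 in PC, 2531 ± 3545 in Ex and 1234 ± 1742 in ExDSS (SD, n = 2 libraries each). Only PC had an SD below its mean. The PC mean was 1911-fold the NC mean, with no overlap between the groups. Its log2 difference of 10.89 was 15.81 without NC 1, which leaves the single count of NC 2, and 9.92 without NC 2. The highest of the 8 values was that of PC 2 and the lowest that of NC 2. The ExDSS mean was 5.01-fold below the PC mean, again without overlap. The fitted log2 difference of -2.32 was -1.34 without ExDSS 1 and -11.38 without ExDSS 2, which carried nearly all of the ExDSS mean. The Ex mean was 783-fold above the NC mean without overlap, and almost all of it came from Ex 1: the log2 difference was 9.60 with both Ex libraries and 2.73 without Ex 1. ExDSS and Ex overlapped, and their log2 difference of -1.04 became 5.84 without Ex 1, -0.05 without ExDSS 1 and -10.08 without ExDSS 2. With NC and PC exchanged, the Ex mean would stand below its control mean and the ExDSS mean above its own.

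Mptx2 had counts only in libraries that were high in Mptx1, and at a far lower level. It had no count in NC 1, NC 2, Ex 2 or ExDSS 1. PC 1 and PC 2 held 97 and 221 counts (7.06 and 17.4 CPM), Ex 1 held 112 counts (11.5 CPM) and ExDSS 2 held 3 counts (0.252 CPM). Each library with at least 2466 CPM of Mptx1 thus had counts of Mptx2, and no other library had any. The libraries without Mptx2 held at most 96 counts of Mptx1. That is too few to show Mptx2 at even the share of 0.227% that it had in Ex 1. The match therefore does not show that both genes changed together. Since 3 counts, the limit that a count of 0 allows, correspond to 0.199 to 0.412 CPM in NC 1, NC 2 and ExDSS 1 but to 4.47 CPM in Ex 2, the shallow Ex 2 library could not show a level like that of ExDSS 2. The PC mean of 12.2 ± 7.28 CPM (SD, n = 2 libraries) was at least 50.3-fold higher than NC, taking 3 counts per NC library as the limit. The Ex mean was at least 23.6-fold higher than NC on the same limit, with all its counts in Ex 1.

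Within the pentraxin pair, Mptx2 made up 0.166% of the counts in PC 1, with an exact (Clopper-Pearson) 95% interval of 0.135% to 0.202%. The share was 0.213% (0.186% to 0.243%) in PC 2 and 0.227% (0.187% to 0.273%) in Ex 1. These 3 intervals overlapped. In ExDSS 2 it was 0.0102% (0.00210% to 0.0298%), an interval that lay below the other 3. Counts in 3′ libraries do not scale with transcript length, so the shares were not divided by length, and the intervals cover counting error only. Whether Mptx1 reads counted for Mptx2 contributed to the share was not tested.

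Itln1, a lectin of goblet and Paneth cells that binds microbial sugars, lies at chr1:171518124-171535294 on the minus strand and was low everywhere, with 382 counts in all. It stood at 0.664 and 4.96 CPM in NC, 6.48 and 6.68 in PC, 2.56 and 1.49 CPM in Ex, and at 0 and 10.1 CPM in ExDSS 1 and ExDSS 2. The value in Ex 2 was 1 count. PC exceeded both NC libraries, at a mean of 6.58 ± 0.140 CPM against 2.81 ± 3.04 CPM (SD, n = 2 libraries each). The log2 difference between PC and NC was 1.23, and it was 3.29 without NC 2 and 0.42 without NC 1. The other 3 pairs of groups overlapped. Between ExDSS and PC the log2 difference of -0.38 became 0.60 without ExDSS 1 and -9.04 without ExDSS 2, and between Ex and NC the value of -0.41 became 1.63 without NC 2. Between ExDSS and Ex it went from 1.26 to -7.41 without ExDSS 2, the latter resting on a lone library with no count.

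Lyz1, the lysozyme of Paneth cells, lies at chr10:117287795-117292868 on the minus strand beside Lyz2, the lysozyme of macrophages. Lyz1 stood at 19.5 and 12.1 CPM in NC, 9.32 and 21.2 in PC, 16.7 and 1.49 CPM in Ex and 18.1 and 18.6 CPM in ExDSS. Outside Ex 2, where it had 1 count, its levels spanned only 9.32 to 21.2 CPM. No other member had so small a ratio of highest to lowest level over these 7 libraries. Its means in NC and PC were 15.8 ± 5.18 and 15.3 ± 8.41 CPM (SD, n = 2 libraries each), and these groups overlapped. ExDSS, at 18.4 ± 0.346 CPM, lay above both Ex libraries, with a log2 difference of 0.95 that became 0.18 without Ex 2 and 3.81 without Ex 1. The difference of -0.05 between PC and NC changed sign under 7 of the alternatives tried, among them library totals alone, where it was 0.10. The difference between ExDSS and PC went from 0.27 to -0.17 with library totals alone and to -0.14 without PC 1. Between Ex and NC it went from -0.73 to 0.11 without Ex 2 and to -3.52 without Ex 1.

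Lyz1 and Lyz2 also share sequence, with 95.8% identity of their transcripts and 16.1% of the 50-base windows of Lyz1 found in Lyz2. The last 200 bases were 95.4% identical. Lyz2 stood at 117 and 6.68 CPM in NC 1 and NC 2, at 46.6 and 76.4 CPM in PC, at 65.3 CPM in Ex 1 with no count in Ex 2, and at 34.5 and 62.2 CPM in ExDSS. Lyz1 therefore took 14.3% of the counts of the pair in NC 1, 16.7% in PC 1, 21.7% in PC 2, 20.3% in Ex 1 and 23.0% in ExDSS 2, with exact 95% intervals that reached from 12.8% to 25.8% over these 5. In the libraries with pancreatic RNA its share was 64.5% (57.4% to 71.1%) in NC 2 and 34.5% (29.7% to 39.5%) in ExDSS 1. The high shares went with low Lyz2 rather than with high Lyz1, which stood at 12.1 and 18.1 CPM there.

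**Figure D1:**
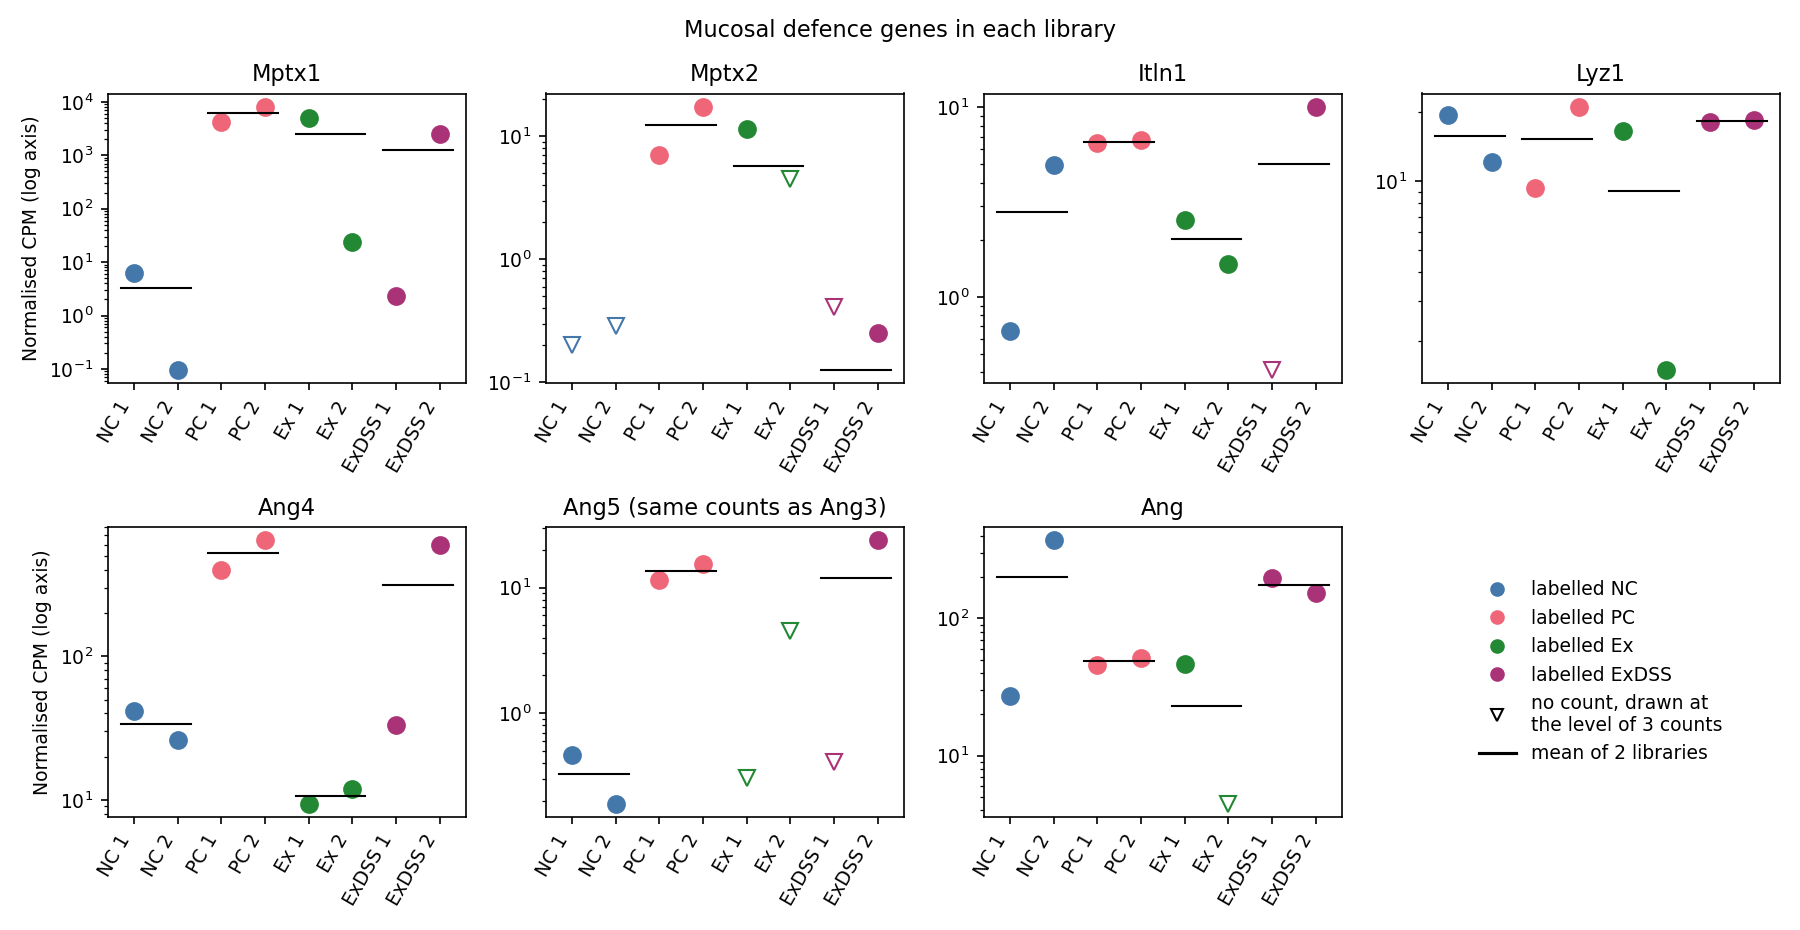
Level of each member in each library, as normalised CPM on a log axis, with 1 point per library, colours for the labelled groups and a line at the mean of 2 libraries. Open triangles mark libraries with no count, drawn at the level of 3 counts. Mptx1 spans 0.0954 to 8115 CPM, whereas Lyz1 stays between 9.32 and 21.2 CPM outside Ex 2.

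The angiogenin genes lie on chromosome 14. Ang4 is listed at chr14:51763892-51773590 on the minus strand and Ang5, with Ang3, at chr14:43957069-43963080 on the plus strand. Their upstream sequences are shown because these ribonucleases had the same libraries at the top; they cover the 150 bases before each RefSeq start (GRCm38.p6), at chr14:51773591-51773740 and chr14:43956919-43957068, 5′ to 3′ on the gene's own strand, with capitals at bases that lack an identical partner in the other gene.
Ang4: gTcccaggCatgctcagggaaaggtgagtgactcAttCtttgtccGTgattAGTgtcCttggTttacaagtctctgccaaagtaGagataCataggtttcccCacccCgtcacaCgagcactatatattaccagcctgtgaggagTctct
Ang5: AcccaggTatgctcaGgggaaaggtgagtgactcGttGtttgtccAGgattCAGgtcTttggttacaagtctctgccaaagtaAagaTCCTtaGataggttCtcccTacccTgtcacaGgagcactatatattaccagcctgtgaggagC
The 300-base promoter entries of this pair were 83.8% identical, against 51.3% for Ang and Ang4 and 50.2% for Mptx1 and Ang4. The entry of Ang5 matched that of its relative Ang6 in 300 of 300 bases. The letters TATATA, which read the same on both strands, occurred in the 250 bases before the start in Ang4 (29 bases before it), Ang5 (25), Mptx2 (51) and Itln1 (226), and not in those of Mptx1, Ang or Lyz1. Of all 32851 promoter entries, 5.25% held these letters in that window. CTTTGAT, a core of the sites of Wnt-dependent TCF factors, was searched on both strands and found in none of the 7 members with an entry and in 3.21% of all entries. TATAAA and AGATAA were searched in the same way. Among the members both occurred in Mptx1 only, on the reverse strand, and they were found in 12.4% and 9.99% of all entries.

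Ang4 was highest in both PC libraries and in ExDSS 2. It stood at 41.6 and 26.2 CPM in NC, 399 and 648 in PC, 9.41 and 11.9 CPM in Ex, and 33.2 and 600.3 CPM in ExDSS. The value in Ex 2 was 8 counts, and ExDSS 1 lay within the range of the NC libraries. The group means were 33.9 ± 10.8 CPM in NC, 524 ± 176 in PC, 10.7 ± 1.78 in Ex and 317 ± 401 in ExDSS (SD, n = 2 libraries each).

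PC was 15.5-fold above NC in Ang4 without overlap, and its log2 difference of 3.95 stayed between 3.59 and 4.33 when any 1 library was left out. Ex was 3.18-fold below NC without overlap, with a log2 difference of -1.68 that was -1.11 with RLE factors, another scaling. ExDSS lay above both Ex libraries, 29.7-fold by the means. Its log2 difference from Ex was 4.90 and fell to 1.67 without ExDSS 2. PC and ExDSS overlapped, with a log2 difference of -0.73 that became 0.18 without ExDSS 1 and -3.99 without ExDSS 2.

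Ang5 had 158 and 196 counts in PC (11.5 and 15.4 CPM) and 284 counts in ExDSS 2 (23.8 CPM). NC 1 and NC 2 held 7 and 2 counts (0.465 and 0.191 CPM), and Ex 1, Ex 2 and ExDSS 1 held none. The PC mean was 41.0-fold the NC mean, 13.4 ± 2.75 against 0.328 ± 0.194 CPM (SD, n = 2 libraries each), with no overlap. The log2 difference of 5.29 was 6.05 without NC 1 and 4.82 without NC 2. The ExDSS mean of 11.9 ± 16.8 CPM was at least 4.98-fold higher than Ex on the limit of 3 counts per library, with all its counts in ExDSS 2. Between ExDSS and PC the log2 difference was -0.17. It became 0.81 without ExDSS 1 and 0.07 without PC 2, and -10.07 without ExDSS 2, where a lone library with no count remained.

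Ang5 took 2.80% of the counts of Ang4 and Ang5 together in PC 1 (exact 95% interval 2.38% to 3.26%) and 2.32% (2.01% to 2.66%) in PC 2. The share was 3.82% (3.39% to 4.28%) in ExDSS 2, above both PC intervals. It was 1.11% (0.446% to 2.27%) and 0.722% (0.0876% to 2.58%) in the NC libraries, and 0 in the libraries without a count of Ang5, which allows up to 3.93% in Ex 1 and 1.51% in ExDSS 1. The upper limit in ExDSS 1 lay below the lower limits of the PC libraries and of ExDSS 2. Transcripts of Ang5 and Ang4 were 88.9% identical and shared 4.61% of 50-base windows. Over their last 200 bases, the end from which 3′ libraries are made, they were 93.8% identical. Whether Ang4 reads counted for Ang5 contributed to the share was not tested. Ang6, whose promoter entry equals that of Ang5, had 3 counts in PC 1, 11 in PC 2, 28 in ExDSS 2 and none in the other 5 libraries, the same libraries that led for Ang4 and Ang5.

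The balance of Ang4 and Mptx1 differed between libraries that were high in either. Ang4 made up 8.59% (8.38% to 8.81%) and 7.40% (7.25% to 7.55%) of their joint counts in PC 1 and PC 2 and 19.6% (19.2% to 19.99%) in ExDSS 2, but 0.186% (0.150% to 0.229%) in Ex 1. Ex 1 thus had Mptx1 at the level of the PC libraries together with Ang4 below both NC libraries.

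Ang, the angiogenin of the liver and other organs, lies at chr14:51091077-51102009 on the plus strand. It overlaps Rnase4, a ribonuclease that starts from the same promoter: the RefSeq entries of both match in 300 of 300 bases. Ang stood at 27.3 and 371 CPM in NC 1 and NC 2, 45.6 and 51.7 CPM in PC, 46.3 CPM in Ex 1 with no count in Ex 2, and 195 and 152 CPM in ExDSS. NC 2 and both ExDSS libraries were high, an order unlike that of Ang4 or Ang5. Both ExDSS libraries exceeded both PC libraries, at a mean of 174 ± 30.3 against 48.6 ± 4.32 CPM (SD, n = 2 libraries each). NC and PC overlapped, and their log2 difference of -2.03 became 0.84 without NC 2. Between Ex and NC the log2 difference of -3.05 became -0.19 without NC 2, and between ExDSS and Ex the value of 2.85 became 1.95 without Ex 2. Without Ex 1 these were -13.96 and 13.84, with only a library without Ang counts left in Ex.

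Rnase4 did not show the same order as Ang, although both start at the same promoter. It stood at 191 and 178 CPM in NC, 287 and 312 in PC, 217 and 1.49 CPM in Ex and 122 and 310 CPM in ExDSS. Ang made up 12.5%, 13.7%, 14.2% and 17.6% of the counts of this pair in NC 1, PC 1, PC 2 and Ex 1, with exact 95% intervals from 11.4% to 19.1% over these 4. Its share was 67.6% (66.3% to 68.8%) in NC 2, 61.6% (59.5% to 63.5%) in ExDSS 1 and 32.9% (31.7% to 34.2%) in ExDSS 2. The pancreatic ribonuclease Rnase1 stood at 1153 CPM in NC 2 and 3809 CPM in ExDSS 1 and at 0 to 5.96 CPM elsewhere. ExDSS 2 had a raised Ang share with no count of Rnase1 and 0.106% of acinar counts. The part of pancreatic RNA in the Ang values of NC 2 and ExDSS 1 was not tested.

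**Figure D2:**
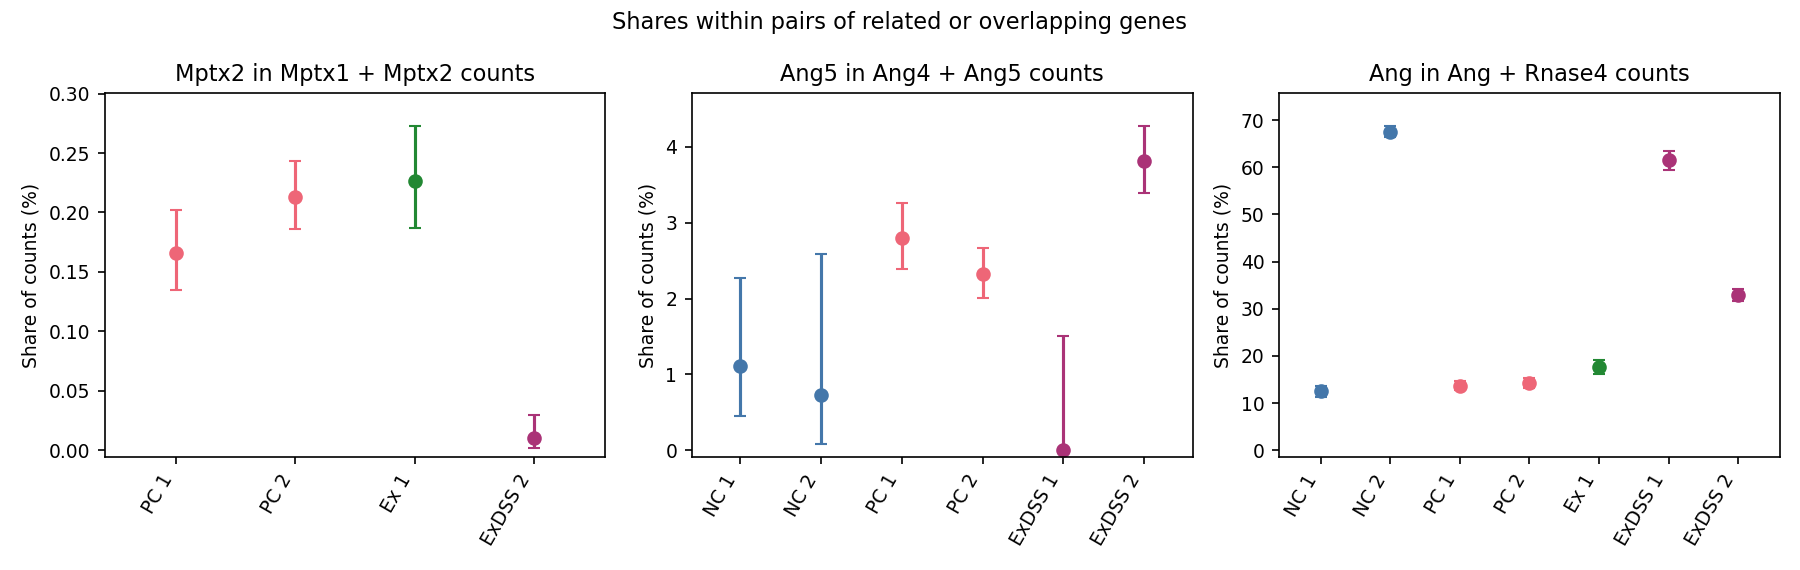
Share of counts, in percent, within 3 pairs of related or overlapping genes, with exact 95% intervals, for libraries with at least 200 counts of the pair and colours as labelled groups. The Mptx2 share is lowest in ExDSS 2 at 0.0102%, the Ang5 share is highest there at 3.82%, and the Ang share is highest in NC 2 and ExDSS 1 at 67.6% and 61.6%.

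Counted over the 8 lines, 6 members (Mptx1, Mptx2, Ang3, Ang4, Ang5 and Itln1) were higher in PC than in NC without overlap, beside 31% of all genes tested, and none was lower, beside 23.6%. For ExDSS against PC, 1 member (Ang) was higher, beside 18.9% of genes, and 2 (Mptx1 and Mptx2) were lower, beside 45.4%. For Ex against NC, Mptx1 was higher, beside 11.1%, and Ang3, Ang4 and Ang5 were lower, beside 22.9%. The Ang3 and Ang5 lines held 7 and 2 counts in NC 1 and NC 2 (0.465 and 0.191 CPM) and none in Ex. Since 3 counts equal 0.307 CPM in Ex 1 and 4.47 CPM in Ex 2, Ex 2 could not show the NC levels. For these lines no decrease was measured. For ExDSS against Ex, Ang, Ang4 and Lyz1 were higher and none lower, beside 17% of genes in each direction. Nothing is read from these counts, since the members were chosen from the same values.

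In the fit over all genes with edgeR's quasi-likelihood test, no member had an adjusted p under 0.05 in any of the 4 pairwise comparisons, beside 0% of genes, or in the interaction, beside 0.288%. The interaction is the DSS difference with exosomes minus the DSS difference without them. DESeq2 gave an adjusted p under 0.05 to Mptx1 and Mptx2 for PC against NC, beside 0.68% of genes, and for Ex against NC, beside 2.73%. It did so for Mptx2 in ExDSS against PC, beside 10.6%, for Ang3, Ang4 and Ang5 in ExDSS against Ex, beside 15%, and for Mptx1 and Mptx2 in the interaction, beside 12.2%. With an unadjusted p under 0.05 in edgeR, Mptx1, Mptx2 and Ang4 were above NC in PC, beside 0.686% of genes, and no member was below, beside 1.81%. Between ExDSS and PC, Mptx2 was lower, beside 16.1%, and none higher, beside 2.84%. Between Ex and NC, Mptx1 and Mptx2 were higher, beside 2.89%, and none lower, beside 2.42%. Between ExDSS and Ex, Ang3, Ang4 and Ang5 were higher, beside 3.55%, and none lower, beside 16.2%. In the interaction Ang was higher, beside 5.86%, and Mptx1 and Mptx2 were lower, beside 13%.

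**Figure D3:**
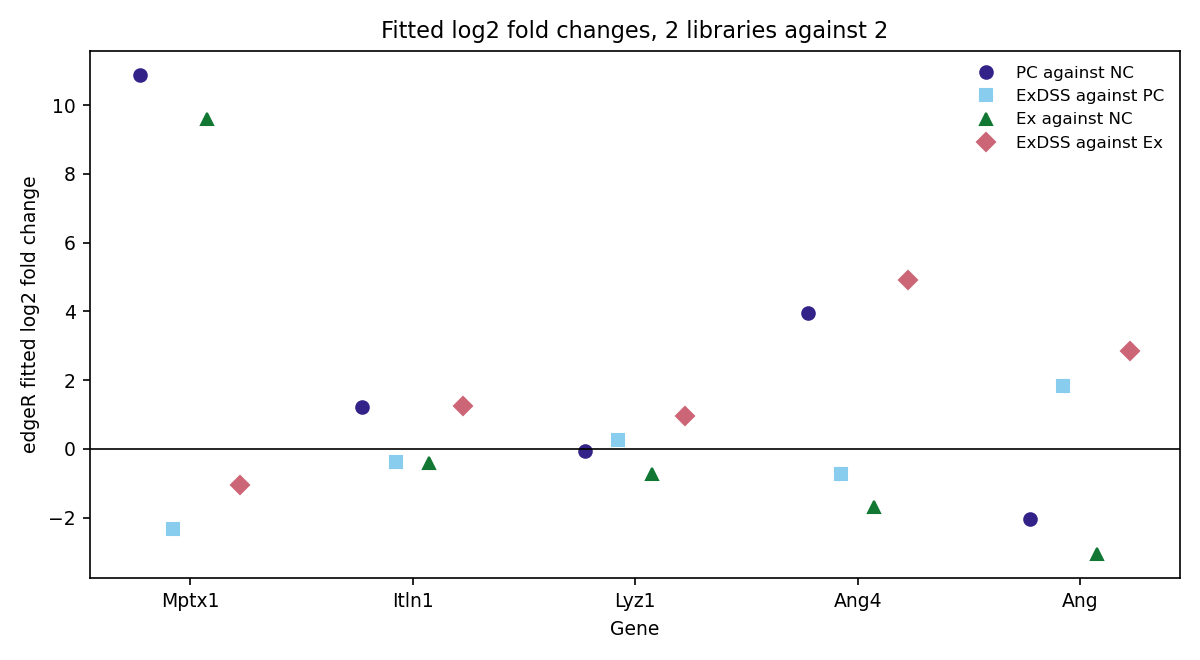
Fitted log2 fold changes of the 5 members with counts in every group, for the 4 comparisons of 2 libraries against 2, with directions as labelled. Mptx1 lies at 10.89 for PC against NC and 9.60 for Ex against NC, Ang4 at 3.95 and 4.90 for the 2 DSS comparisons, and Lyz1 within 1 log2 unit of 0. Mptx2 and Ang5 are left out because a group without counts gives no bounded fitted value.

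Other genes of the same families and cell types were taken from lists. Among 7 pentraxin relatives, 2 passed the filter, and edgeR called 0 of these in any comparison, with 0 at an unadjusted p under 0.05 and 0 called by DESeq2. Ptx3, a pentraxin of macrophages and stroma, stood at 7.30 and 1.62 CPM in NC, 0.218 and 0 in PC, 0.409 and 1.49 in Ex, and 0 and 5.87 in ExDSS. The neuronal pentraxin receptor Nptxr reached 5.90 CPM at most, and the liver pentraxins Apcs and Crp had 10 and 5 counts in all. No pentraxin relative exceeded 7.30 CPM in any library. Within the ribonuclease list, 7 of 21 genes passed the filter and edgeR called 0 of them in any comparison. At an unadjusted p under 0.05 it gave 1 lower for PC against NC, 1 in each direction for ExDSS against PC, 0 for Ex against NC, and 2 higher and 1 lower for ExDSS against Ex. DESeq2 called 1, 2, 0 and 2 of them in the same order. The ribonuclease inhibitor Rnh1, which binds angiogenins in the cytosol, stood at 116 and 198 CPM in NC, 69.4 and 65.6 in PC, 54.5 and 1.49 CPM in Ex, and 304 and 288 CPM in ExDSS.

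Among other products linked to Paneth cells, 7 of the 8 tested had a negative fitted difference between PC and NC. The table held 26 such genes, and edgeR called 0 of the 8 that passed the filter in any comparison. The gene with a positive difference was Habp2, with 81 counts in all libraries together. Its levels were 0.291 and 0.471 CPM in PC, 2.35 CPM in Ex 1, 3.86 CPM in ExDSS 2 and at most 0.133 CPM elsewhere. Since 3 counts equal 0.412 CPM in ExDSS 1 and 4.47 CPM in Ex 2, neither could show a level like that of PC 1. Genes of this list with an unadjusted p under 0.05 were 3 lower in PC than in NC, 2 higher in ExDSS than in PC, 5 lower in Ex than in NC and 5 higher in ExDSS than in Ex. DESeq2 called 0, 2, 2 and 5 of them. The median log2 difference between PC and NC was -2.66, beside 0.10 over all genes. Lyz2, also in this list, had means of 61.6 CPM in NC and 61.5 CPM in PC. The antimicrobial lectin Reg3b stood at 6657 and 5490 CPM in NC, 714 and 2.75 in PC, 7.05 and 13.4 CPM in Ex, and 8821 and 87.0 CPM in ExDSS. Its relative Reg3g had its highest values in NC 1 (3109 CPM), NC 2 (1887 CPM) and ExDSS 1 (1703 CPM), which were 3 of the 4 libraries low in Mptx1. Colipase (Clps), which the pancreas also makes, stood at 2157 CPM in NC 2 and 5503 CPM in ExDSS 1 and at most 71.8 CPM elsewhere. Its value of 14.3 CPM in NC 1 lay below both PC libraries, at 31.5 and 37.3 CPM, so its negative difference came from NC 2. The median and the 7 negative differences thus do not describe a difference shared by all 7 genes.

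Goblet cell genes were found in every library, though only 11 of 14 had a count in ExDSS 1 and 10 of 14 in Ex 2. All 14 in the table passed the filter and edgeR called 0 in the 4 pairwise comparisons. An unadjusted p under 0.05 was reached by 0 for PC against NC, 1 lower for ExDSS against PC, 2 lower for Ex against NC, and 3 higher and 1 lower for ExDSS against Ex, and DESeq2 called 0, 1, 1 and 3. Their summed level was 14042 to 55859 CPM in 7 libraries and 237 CPM in Ex 2. The chloride channel regulator Clca1 stood at 22778 CPM in ExDSS 2 and at 65.6 to 4752 CPM elsewhere, and the trefoil factor Tff3 at 10635 CPM in ExDSS 2 and 29.8 to 5583 CPM elsewhere. ExDSS 2, which led for Ang5 and Itln1, had the largest sum. Only 4 of the 14 genes (Zg16, Clca1, Tff3 and Fcgbp) were highest there, and the other 10 were higher in another library, such as the mucin Muc2 at 1494 CPM in ExDSS 2 against 2942 CPM in PC 1. In bulk tissue, fewer cells of a type and less RNA per cell cannot be told apart, and the part of goblet cell RNA in the member values was not tested.

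The marker of colonic deep crypt secretory cells, Reg4, was high in 3 of the 4 libraries that were high in Mptx1. It stood at 68.3 and 51.1 CPM in NC, 365 and 1100 in PC, 1376 and 5.96 CPM in Ex, and 14.7 and 51.0 CPM in ExDSS. ExDSS 2 was the exception, with 2466 CPM of Mptx1 and Reg4 at the level of the NC libraries. The list of 5 genes had 0 calls in the 4 pairwise comparisons. Before adjustment, at p under 0.05, 2 were lower in ExDSS than in PC and 2 lower in ExDSS than in Ex, with 0 for PC and for Ex against NC. DESeq2 called 0, 0, 0 and 2 of them for PC against NC, ExDSS against PC, Ex against NC and ExDSS against Ex. Its summed level was 424 to 1403 CPM in PC 1, PC 2 and Ex 1 and 98.4 to 131 CPM in the other 5 libraries, and was mostly Reg4 in those 3. Cd44 ran the other way, at 16.8 to 41.3 CPM in PC 1, PC 2 and Ex 1 and 52.8 to 86.0 CPM in the other 5. Kit was highest in PC, at 14.6 and 10.8 CPM, with 6.65 CPM in Ex 1 and at most 7.69 CPM elsewhere. The Notch ligands Dll1 and Dll4 had their highest values in Ex 2, at 5.96 CPM each. These rest on few counts, since 3 counts equal 4.47 CPM there.

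The list of 12 colon position genes had 0 calls by edgeR in the 4 pairwise comparisons. Unadjusted, at p under 0.05, 5 were higher in PC than in NC, 2 lower in ExDSS than in PC, 5 higher in Ex than in NC and 3 lower in ExDSS than in Ex, and DESeq2 called 0, 0, 2 and 2. Their summed level was 1874 and 2954 CPM in NC, 5852 and 4990 in PC, 9437 and 161 CPM in Ex, and 1320 and 3165 CPM in ExDSS. The 4 highest sums were those of the 4 libraries high in Mptx1. The gut region of each sample is not given, and its part in the Mptx1 values was not tested.

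Receptor genes for interleukin 4 and interleukin 13, cytokines known to induce angiogenin 4 and intelectin, did not share the order of Ang4. The cytokine genes Il4 and Il13 had 5 and 0 counts in all libraries together, and their part in the Ang4 values was not tested. Il4ra stood at 111 and 102 CPM in NC, 26.1 and 28.3 in PC, 16.7 and 4.47 CPM in Ex, and 125 and 182 CPM in ExDSS. Of the 12 genes of this axis, 8 passed the filter and edgeR called 0 in the 4 pairwise comparisons. Unadjusted values under 0.05 numbered 0 for PC against NC, 1 higher for ExDSS against PC, 1 lower for Ex against NC and 2 higher for ExDSS against Ex. DESeq2 called 0, 1, 0 and 1.

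Among 14 tested Wnt components and Paneth cell regulators edgeR called 0 in the 4 pairwise comparisons. Those at an unadjusted p under 0.05 were 0 for PC against NC, 4 lower for ExDSS against PC, 1 lower for Ex against NC, and 1 higher and 4 lower for ExDSS against Ex, and DESeq2 called 0, 3, 0 and 1. The transcription factor Sox9, needed for Paneth cells to form, stood at 65.0 and 20.3 CPM in NC, 120 CPM in both PC libraries, 90.6 and 294 CPM in Ex, and 20.5 and 30.9 CPM in ExDSS. For Sox9, both PC libraries and both Ex libraries lay above all 4 others, with the highest value in the shallow Ex 2. Tcf7l2 had that order by a small margin, at 87.6 CPM in PC 1 against 86.5 CPM in ExDSS 2. Ctnnb1, with the highest mean of the list, did not, at 862 and 410 CPM in NC against 645 and 565 CPM in PC. Of the 14 tested, 10 had a positive fitted difference between PC and NC and 4 a negative one.

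Macrophage genes (9 tested, 0 called in the 4 pairwise comparisons by edgeR) had summed levels of 1056 and 2482 CPM in NC, 276 and 383 in PC, 353 and 14.9 CPM in Ex, and 2361 and 3236 CPM in ExDSS. At an unadjusted p under 0.05 there were 1 lower for PC against NC, 3 higher for ExDSS against PC, 3 lower for Ex against NC and 4 higher for ExDSS against Ex, and DESeq2 called 0, 1, 1 and 4. Neutrophil and acute inflammation genes summed to 6096 and 6025 CPM in NC but to 13.2 and 12.6 CPM in PC, to 34.3 and 53.7 CPM in Ex, and to 8022 and 4946 CPM in ExDSS. In that list of 10, edgeR called 7 higher in the interaction, and 0 in the 4 pairwise comparisons. Without adjustment, at p under 0.05, 10 were lower in PC than in NC, 8 higher in ExDSS than in PC, 10 lower in Ex than in NC and 7 higher in ExDSS than in Ex, and DESeq2 called 8, 8, 8 and 7. The libraries low in these genes, PC 1, PC 2, Ex 1 and Ex 2, included 3 of the 4 that were high in Mptx1, while ExDSS 2 was high in both. Their part in the member values was not tested.

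**Figure D4:**
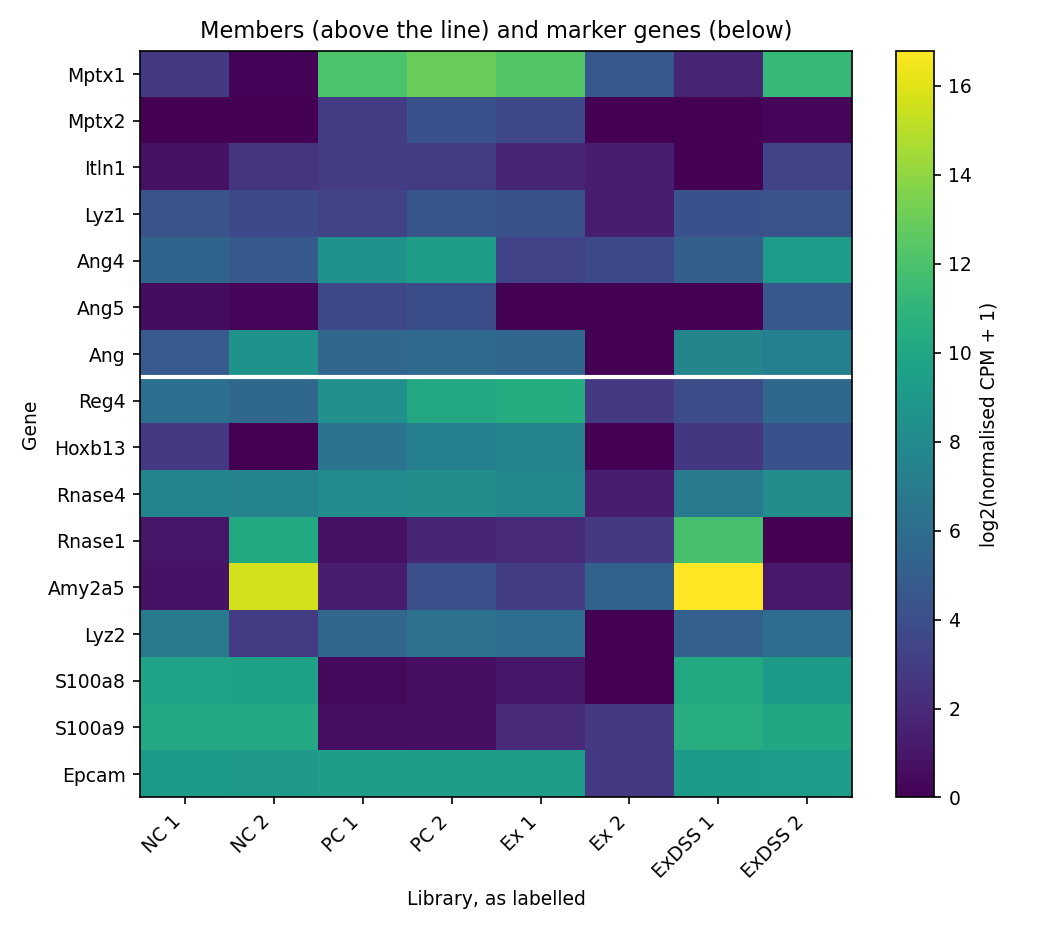
Levels as log2(normalised CPM + 1), by colour, for the members above the white line and marker genes below it, with 1 column per library as labelled. Mptx1 is bright in PC 1, PC 2, Ex 1 and ExDSS 2, Reg4 in PC 2 and Ex 1, Ang4 in PC 1, PC 2 and ExDSS 2, the pancreatic genes Amy2a5 and Rnase1 in NC 2 and ExDSS 1, and S100a8 in NC and ExDSS.

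For each member with a mean of at least 5 CPM, the genes with the most similar pattern were sought among 10005 candidates, by the root-mean-square difference of centred log2(CPM + 1) over the 8 libraries, which share the differences in depth and tissue described above. Mptx1, with a spread of 5.06 log2 units around its own mean, had no close partner. The nearest were Hoxb13 at 2.90, a homeobox gene of the most distal gut, the carbonic anhydrase Car3 at 3.04 and Cttnbp2 at 3.12. Hoxb13 stood at 5.91 and 0 CPM in NC, 83.1 and 152 in PC, 183 and 0 CPM in Ex, and 5.22 and 18.1 CPM in ExDSS. It was high in PC 1, PC 2 and Ex 1, as Mptx1 was, and low in ExDSS 2, where Mptx1 was high.

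Ang4, with a spread of 2.32, was nearest to the adrenergic receptor Adra2a at 1.52, Gfra4 at 1.59 and Bcdin3d at 1.61, and Ang5, with 1.93, to Gfra4 at 1.14, Mad1l1 and Adra2a, both at 1.15. These partners had low levels, with Adra2a at no more than 14.6 CPM. Ang, with a spread of 2.44, lay close to Tmc4 at 0.41, Blnk at 0.43 and Ppp6r1 at 0.45. Tmc4 stood at 381 CPM in NC 2 and 252 CPM in ExDSS 1, the libraries with pancreatic RNA, at 105 CPM in ExDSS 2, and at 0 to 52.8 CPM in the other 5. Lyz1, with a spread of 0.98, lay close to Lamb2 at 0.27, Kremen2 at 0.30 and Laptm4a at 0.31, genes that were likewise low in Ex 2 only.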

How the data were processed

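Intestinal RNA was measured in 8 libraries, 2 for each of 4 groups. Per the labels' protocols, Trizol RNA was made into libraries with the QuantSeq 3′ mRNA kit. The deposited table holds raw whole-number counts per gene, made by the authors with tools listed in the submitters' processing notes (Bowtie2, bedtools, edgeR, build mm9, no versions). The positions in the table overlapped the GRCm38 gene of the same name for 22071 of 22139 genes (99.69%), so they are given as GRCm38. The strand setting of the counting is not stated in these sources, and overlapping genes can share reads. Replicate libraries differed by more than sampling noise, and no library was a copy of another.

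Counts were scaled by library total and TMM factor and fitted with edgeR 4.0.16 (R 4.3.3, limma 3.58.1), filterByExpr with a minimum count of 10 and a total of 15, and the robust quasi-likelihood test with 1 coefficient per group over all 8 libraries (4 residual degrees of freedom). P-values were adjusted by Benjamini-Hochberg over 14567 genes and called under 0.05. A floor of 3 counts per library bounds folds against a group at 0. Shares carry exact Clopper-Pearson 95% intervals. Sequences came from RefSeq promoter entries (7 of 8 members matched) and GENCODE transcripts, aligned with Biopython 1.88. The fitting code was run on simulated data with a smaller spread between libraries than here. That run checks the code only. It does not measure power or false calls in these data, whose common dispersion was 1.17. Alternatives were DESeq2 1.42.0, RLE factors, library totals alone, no filter, a replicate block, removal of Rn45s and acinar genes, and leaving out libraries.

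The members, the gene lists and the tests were chosen with earlier results of these data known. Named were all members, the 3 genes of each list with the highest mean CPM or fewer of them, the 3 genes nearest in pattern to each member, and relatives, neighbours and markers that could share reads or describe the libraries. Lct, Sis, Treh, Apoa4, Anpep, Mmp7, Pla2g2a, Habp2, Muc2, Fcgbp, Dll1, Dll4, Il4, Il13 and Epcam were singled out after their values were seen.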

Additional observations from a re-analysis of the deposited data

Results flagged for a closer look

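Mptx1 moved in opposite directions under the 2 exosome contrasts: each Ex library lay above both NC libraries, and each ExDSS library lay below both PC libraries. The fitted difference between the contrasts, equal to the interaction, was -11.92 on the log2 scale. It was -5.09 without Ex 1, -16.82 without NC 1 and -20.98 without ExDSS 2. For this gene the difference was not tested as a finding, since Mptx1 was chosen from the same values, and edgeR's fit over all genes did not call it. The libraries behind it stood apart in other ways: Ex 2 had 16 counts of Mptx1 in a total of 1163147, and ExDSS 1 had 22.0% of its counts in pancreatic acinar genes. The part of either in this value was not tested. Calprotectin genes went against the labels NC and PC. With these exchanged, the Ex mean of 2531 CPM would stand below its control mean of 6181 CPM, the ExDSS mean of 1234 CPM would stand above its control mean of 3.23 CPM, and the interaction would change sign.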

How the results depend on the processing

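With 2 libraries a group and a dispersion shared over 8, calls depended on the settings. Genes called by edgeR numbered 0 for PC against NC, 0 for ExDSS against PC, 0 for Ex against NC, 0 for ExDSS against Ex and 42 for the interaction. In that order there were 45, 132, 55, 223 and 350 without the filter on low counts, and 85, 1512, 341, 2082 and 1650 with DESeq2. The interaction gave 67 genes with RLE factors (46 higher, 21 lower, against 38 and 4), 6 with library totals alone (6 and 0), and 0 without NC 2 and ExDSS 1. Leaving out 1 library at a time gave 0 to 4, 0 to 6, 0 to 1596, 0 to 1883 and 0 to 1663 genes, the last 3 maxima without Ex 1. The interaction fell to 0 without NC 1 or NC 2, 1 without PC 1, 7 without Ex 2, 14 without ExDSS 1 and 23 without ExDSS 2. A lone remaining library is assumed to vary like the other groups. The cause of these shifts was not tested.

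With a replicate block there were 0, 41, 0, 28 and 161 genes. Deviations from the group means correlated between groups at -0.20 to 0.05 over 14567 genes, which are not independent replicates. These correlations cannot decide whether the replicate numbers pair the libraries. Libraries within some groups also differed in depth or in pancreatic RNA, which can hide a shared replicate effect. No member was called under the block. Without the filter, Mptx1 was called for PC and for Ex against NC, and Mptx1 and Mptx2 in the interaction. Without Ex 1, Ang was called in the interaction.

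Over 13 settings, 477 of 520 member log2 differences kept their direction and 43 did not. Ang3 and Ang5 enter this total separately with the same values. For a pairwise comparison, some settings leave out a library of neither group, so the total overstates how stable the directions were. The median over all genes moved from 0.10 to 0.29 for PC against NC and from -0.51 to -0.91 for ExDSS against PC with library totals alone. In Ex 2, where 3 counts equal 4.47 CPM, low members could not be measured.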
